A study of Mus musculus with 145 samples.

Results

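The genes described here are 10 genes of the oxygen-sensing pathway and of glucose uptake in mouse spermatogonial stem cells (SSCs) during spontaneous reprogramming to pluripotency. They were chosen by name with earlier results of these data known, and all 10 were found among the 24615 genes of the single-cell count table. Counts of them called therefore describe these genes and do not test the pathway. *Hif1a* and *Epas1* encode the oxygen-regulated subunits of the hypoxia-inducible factors (HIF). *Slc2a1* and *Slc2a3* encode the glucose transporters GLUT1 and GLUT3. *Egln3*, *Bnip3*, *Pdk1*, *Ankrd37*, *Vegfa* and *Ndufa4l2* are known HIF targets.

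The cells came from crosses of C57BL/6 females with DBA males, and the SSCs were Oct4-EGFP cells that were grown in StemPro-34 SFM with EGF, bFGF, GDNF and ESGRO on mitomycin-treated feeder fibroblasts without passaging. Modified STRT-seq, a plate method that counts each cDNA molecule by a unique molecular identifier (UMI), covered 4464 cells in 49 libraries: 46 untreated libraries of days 0 to 27 (36 of batch B1 and 10 of batch B2), 1 library each of the line gPSC-1 at passages 1 and 15 in N2B27 with 2iL, and 1 library of the embryonic stem cell (ESC) line F1 4-5 mESC. The RNA arm of scTrio-seq2 covered 724 cells in 8 samples reprogrammed with 5C, the mixture of SGC707, vitamin C, EGCG, Daphnetin and TUDCA, and 365 cells in 5 samples with DMSO as the control. 5C samples were taken on days 12, 14 and 16, and DMSO samples on days 20 and 24, with day 0 cells pooled into 1 of them, so the treatment and the day cannot be told apart in any comparison below. gPSC-1 is a single line, and the labels do not say that libraries of the same batch and day were separate cultures, so p-values measure the spread between these libraries, which may be technical.

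In the presence of oxygen, prolyl hydroxylases such as EGLN3 mark the HIF alpha subunits for destruction through VHL, and in low oxygen the subunits persist, pair with ARNT and bind the core letters ACGTG or GCGTG near their targets. The factors are therefore controlled largely at the protein, which these data do not measure. HIF targets shift cells toward glucose uptake and glycolysis, the metabolism that pluripotent stem cells in culture also rely on.

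On mouse assembly GRCm38 (mm10), *Hif1a* lies on the plus strand at chr12:73901375-73947530 and *Epas1* on the plus strand at chr17:86753700-86833410. The transporter genes are *Slc2a1* (chr4:119108711-119137983, plus) and *Slc2a3* (chr6:122727809-122801640, minus). The targets are *Egln3* (chr12:54178981-54203860, minus), *Bnip3* (chr7:138890836-138909519, minus), *Pdk1* (chr2:71873224-71903858, plus), *Ankrd37* (chr8:45996902-46005707, minus), *Vegfa* (chr17:46016993-46032369, minus) and *Ndufa4l2* (chr10:127514967-127517154, plus).

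RefSeq promoter sequence of GRCm38.p6, from 250 bases before to 50 bases after a transcription start, was at hand for *Hif1a*, *Slc2a1*, *Egln3*, *Bnip3*, *Pdk1*, *Ankrd37* and *Vegfa*. ACGTG or GCGTG was searched on both strands, so that CACGT and CACGC count as well, and 43.8% of all 32851 promoters of this length held at least 1 of them (19.6% for ACGTG and 32.4% for GCGTG). The windows shown are those of *Slc2a1*, *Bnip3*, *Ankrd37* and *Pdk1*, because the first 3 were lower with 5C and *Pdk1* took another course in RPG4. Capitals mark the matches. The 5′ to 3′ windows are chr4:119108495-119108794 (plus), chr7:138909457-138909756 (minus), chr8:45999801-46000100 (minus) and chr2:71872974-71873273 (plus).
Slc2a1: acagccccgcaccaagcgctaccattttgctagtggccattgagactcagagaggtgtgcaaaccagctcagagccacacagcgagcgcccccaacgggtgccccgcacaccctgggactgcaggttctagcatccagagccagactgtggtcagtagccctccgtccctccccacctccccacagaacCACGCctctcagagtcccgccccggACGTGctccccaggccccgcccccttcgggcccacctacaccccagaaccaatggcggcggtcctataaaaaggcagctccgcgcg
Bnip3: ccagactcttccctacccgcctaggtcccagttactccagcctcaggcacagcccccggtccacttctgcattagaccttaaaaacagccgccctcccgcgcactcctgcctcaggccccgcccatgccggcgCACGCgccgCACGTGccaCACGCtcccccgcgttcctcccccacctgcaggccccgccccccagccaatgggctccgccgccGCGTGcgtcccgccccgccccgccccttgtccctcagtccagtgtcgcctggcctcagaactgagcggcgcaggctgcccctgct
Ankrd37: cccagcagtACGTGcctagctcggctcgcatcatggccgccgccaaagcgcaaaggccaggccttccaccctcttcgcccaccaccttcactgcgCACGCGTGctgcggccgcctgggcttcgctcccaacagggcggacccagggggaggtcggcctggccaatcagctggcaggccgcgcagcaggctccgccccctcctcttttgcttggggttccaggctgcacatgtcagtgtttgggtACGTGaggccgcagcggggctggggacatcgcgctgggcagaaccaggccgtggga
Pdk1: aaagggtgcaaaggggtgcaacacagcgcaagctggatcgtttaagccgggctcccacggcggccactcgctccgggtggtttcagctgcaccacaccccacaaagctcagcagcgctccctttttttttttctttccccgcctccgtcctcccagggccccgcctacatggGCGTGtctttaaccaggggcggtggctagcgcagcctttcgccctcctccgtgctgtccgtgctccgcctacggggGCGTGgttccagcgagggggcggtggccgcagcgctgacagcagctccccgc
The *Slc2a1* window held 2 separate matches, at -61 and -36 from the start, and the *Bnip3* and *Ankrd37* windows held 4 places each. One place in *Bnip3* was CACGTG, the form that reads the same on both strands and occurred in 7.15% of all promoters, and it was also present in the *Hif1a* window at -135. The GCGTG of *Ankrd37* at -152 overlapped a match on the opposite strand. *Pdk1* had GCGTG at -78 and -2, *Egln3* had ACGTG at -229, and another start of *Pdk1* and the first of *Vegfa* had no match, while the second start of *Vegfa* had GCGTG at -218 and ACGTG at -211 on the opposite strand. These letters describe the windows and do not show that a factor is bound there.

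Levels are given as scaled CPM (CPM of UMIs after scaling by the trimmed mean of M-values, TMM), of counts summed over the cells of 1 class in 1 library with at least 5 cells. CPM values leave the total RNA of a cell unknown. The untreated libraries held 15975410 to 34609591 UMIs each, and 82 sums held 4214 of their 4339 cells. Classes are the clusters the authors made from the expression of these same cells, so tests between classes describe clusters that expression itself defined. The class names were checked against markers. The summed level of 5 spermatogonial markers was 1187 to 2502 scaled CPM in SSC1-4 and 101 to 316 in RPG3, that of 5 pluripotency markers was 23 to 243 in SSC1-4 and 1686 to 2426 in RPG3, and in the fibroblast and neural classes the spermatogonial sum stayed at 842 scaled CPM or above. All 6 fibroblast and feeder markers rose in the fibroblast class and 3 of 4 neural markers in the neural class, where they summed to 0 to 115 scaled CPM against 0 to 28.2 in SSC1-4. Other names were not borne out by these lists. In the meiotic class 0 of 4 meiotic markers passed edgeR's test (227 to 377 scaled CPM against 35.7 to 380 in SSC1-4), and in the early-pluripotent class 0 of 5 pluripotency markers did (53.5 to 176), so both are used here as the authors' names only. The pluripotency list lacked *Esrrb* and *Dppa2*, which the authors used for the early-pluripotent name, so that name was not checked on them.

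In SSC1-4, the starting class, 36 sums from 36 libraries gave the base levels, with 6 to 95 cells and 433094 to 34168335 UMIs each. Day 16 libraries, with 638 of the 34674 *Hif1a* UMIs, set both ends of the range for *Hif1a*, *Epas1* and *Pdk1*. They also set the low ends for both transporters, so comparisons with these ends rest on sparse sums. *Hif1a* ranged from 36.1 through a median of 55.3 to 126 scaled CPM (mean 59.0 ± 15.2, SD, n = 36). *Epas1* was near the bottom, from 0 through 4.44 to 17.3 scaled CPM, with 2 libraries at 0. *Slc2a1*, the main carrier of basal glucose uptake, ranged from 6.77 through 102 to 226 scaled CPM, and *Slc2a3*, a high-affinity carrier, from 16.3 through 47.0 to 123. Every library held both transporters, and the lowest *Slc2a1* sums came from day 16, with a mean of 39.4 scaled CPM over 5 libraries. Among the targets, *Pdk1*, the kinase that keeps pyruvate out of the mitochondrion, ranged from 65.6 through 152 to 242 scaled CPM, and *Bnip3*, a mitophagy receptor, from 21.2 through 108 to 195. *Ankrd37* ranged from 0 through 32.3 to 131, *Egln3* from 0 through 9.81 to 28.6 and *Vegfa*, the angiogenic growth factor, from 0 through 3.31 to 12 scaled CPM. *Ndufa4l2*, a mitochondrial protein that lowers respiration in hypoxia, was barely present, at 0 in 10 libraries and at most 3.40 scaled CPM.

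**Figure D1:**
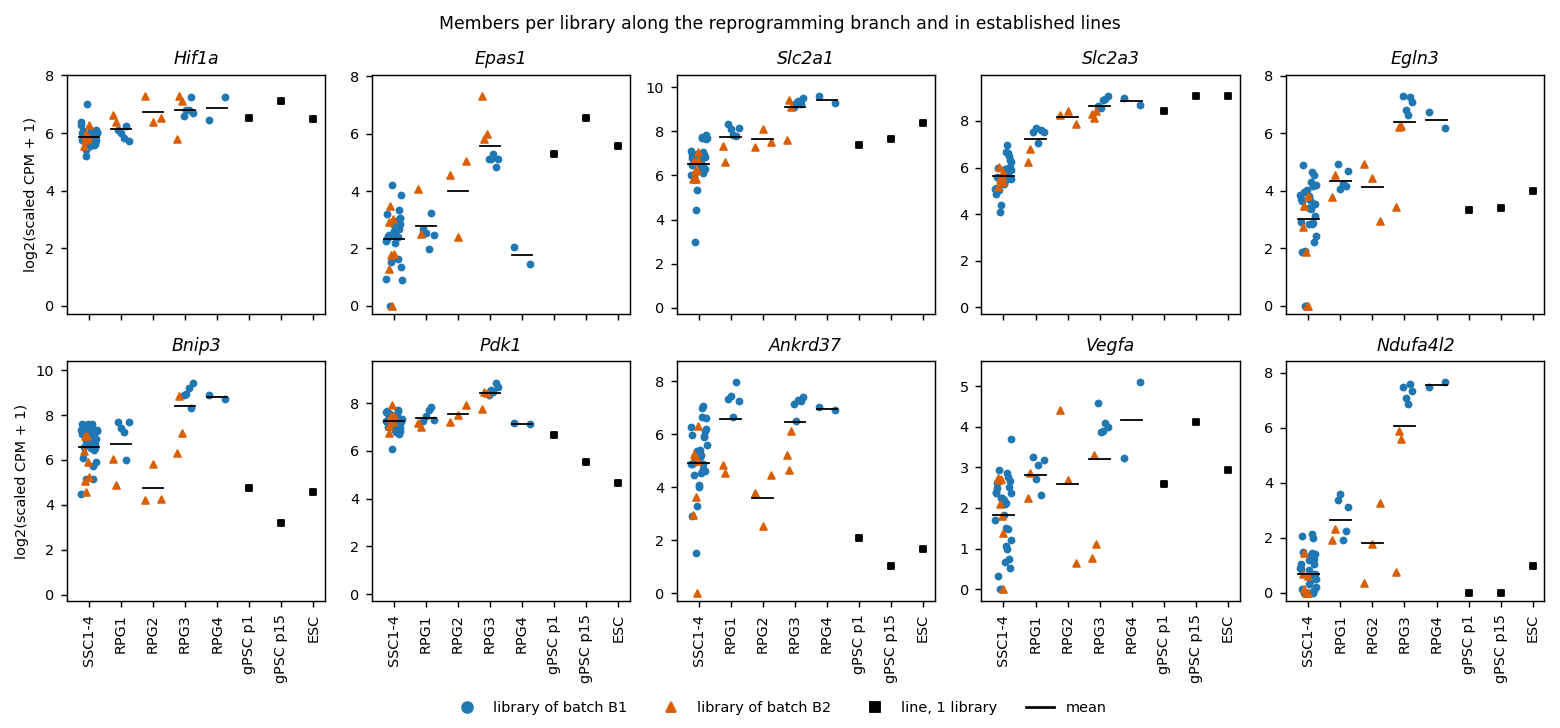
Each panel shows 1 gene as log2(scaled CPM + 1) per library in the classes SSC1-4 and RPG1 to RPG4 and in the gPSC and ESC lines. Circles are libraries of batch B1, triangles of batch B2, squares lines with 1 library, and the horizontal line is the mean of the log2 values. *Slc2a3* is above SSC1-4 in RPG2, RPG3 and RPG4 with no overlap, *Epas1* is at 1.72 and 3.18 scaled CPM in RPG4, and *Ndufa4l2* is high in RPG3 and RPG4 with 1 library of RPG3 at 0.701 scaled CPM.

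Both transporters were raised in RPG1 in the fit over both batches, while the mRNAs of both factors did not pass the test. RPG1 sums were of days 18, 20 and 23 and RPG2 sums of days 12 and 14, so the class numbers give no order in time here. *Slc2a3* was at 75.1 and 109 scaled CPM in the day 18 libraries of batch B2 and at 184, 209, 131, 193 and 184 in the 5 libraries of days 20 and 23 of batch B1. *Slc2a1* was at 161 and 95.7 in the former and at 320, 274, 225, 221 and 282 scaled CPM in the latter. The B1 libraries were the higher ones for both. All 5 of them exceeded the highest SSC1-4 library for *Slc2a3* and 3 did for *Slc2a1*, while the B2 libraries lay within the SSC1-4 range. Against SSC1-4, *Slc2a3* rose by 1.53 ± 0.18 on the log2 scale (2.88-fold, adjusted p = 7.88e-10) and *Slc2a1* by 1.06 ± 0.23 (2.09-fold, adjusted p = 0.00135), with the SE after the sign. *Ankrd37*, a small nuclear ankyrin-repeat protein, was at 27.2 and 21.9 scaled CPM in B2 and at 98.8 to 245 in B1, and *Ndufa4l2* was at 2.83 and 3.97 in B2 and 2.79 to 11.1 in B1. Their rises were 1.53 ± 0.33 (adjusted p = 0.00121) and 2.76 ± 0.61 (6.77-fold, adjusted p = 0.0018).

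Of the 10 genes, 4 rose and none fell in RPG1, where 4.61% of the 20030 genes tested were called at an adjusted p under 0.05 and 2.58% were called higher. *Hif1a* differed by 0.26 (95% interval -0.04 to 0.55) and *Epas1* by 0.36 (-0.48 to 1.2), and *Egln3*, *Bnip3*, *Pdk1* and *Vegfa* also missed the threshold. The 4 calls stood within batch B1. Within batch B2, 0 of 10 passed edgeR's test and 2 had an unadjusted p under 0.05, with *Ankrd37* at -0.24. Blocking on the library left 2 libraries with both classes, and 0 passed and 3 had an unadjusted p under 0.05, whereas DESeq2 on all libraries called 4. Batch and day of the RPG1 libraries cannot be told apart.

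RPG2, the class of 3 batch B2 libraries with 8, 15 and 21 cells, had raised factors and transporters, and lower *Bnip3* and *Ankrd37* that passed in the fit over both batches. *Hif1a* was at 155, 81.8 and 91.1 scaled CPM in the day 12 library and the 2 day 14 libraries, and rose by 0.89 ± 0.21 over SSC1-4 (adjusted p = 0.000276). *Epas1* was at 22.7, 4.33 and 32.5 and rose by 1.94 ± 0.54 (3.84-fold, adjusted p = 0.00249). For *Epas1* the middle library lay at the SSC1-4 median and the others above all SSC1-4 libraries. *Slc2a3* was at 300, 344 and 234 scaled CPM, above every SSC1-4 library, and rose by 2.45 ± 0.23 (5.45-fold, adjusted p = 1.18e-15). *Slc2a1* was at 157, 272 and 184 and rose by 0.92 ± 0.33 (adjusted p = 0.0243). *Bnip3* was at 17.7, 55.5 and 17.9 scaled CPM, under the SSC1-4 median in every library, and fell by 1.85 on the log2 scale (SE 0.55, adjusted p = 0.00515). *Ankrd37* was at 12.8, 4.87 and 20.8 and fell by 1.75 (SE 0.65, adjusted p = 0.0264).

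In all, 4 of the 10 rose and 2 fell in RPG2, where 36% of all genes were called, 17.5% higher and 18.5% lower. *Egln3* (0.86), *Pdk1* (0.32), *Vegfa* (1.35) and *Ndufa4l2* (2.14, adjusted p = 0.0695) were not called. Of the 36 SSC1-4 sums, 29 were of batch B1. With batch as a covariate and within batch B2, *Bnip3* differed by -1.18 and -1.19 (adjusted p = 0.0716 and 0.113) and *Ankrd37* by -1.05 and -1.18 (adjusted p = 0.185 and 0.202), so both stayed lower and neither passed. The 4 rises passed in both, and *Ndufa4l2* did as well (adjusted p = 0.011 and 0.0391). The call of *Slc2a1* was lost without TMM (0.72, adjusted p = 0.0933), which left 3 rises, and with sums per batch and day (0.88, adjusted p = 0.131). Every call but that of *Slc2a3* was lost without 1 library. *Hif1a* had an adjusted p of 0.0909 without the day 12 library, *Epas1* 0.124 without day 14 replicate 6, *Slc2a1* 0.232 without day 14 replicate 5, *Bnip3* 0.0586 and *Ankrd37* 0.0882 without the day 12 library. Blocking on the library, in 2 libraries, left 3 called, *Slc2a1*, *Slc2a3* and *Bnip3* (-1.07, adjusted p = 0.0484).

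In RPG3, the largest of the classes with high pluripotency markers (261 cells), all 10 genes rose over SSC1-4. It had 8 libraries, 3 of batch B2 (day 12 replicate 2 with 7 cells, day 18 replicates 3 and 5) and 5 of batch B1 (days 20 and 23). *Hif1a* was at 54.7, 157 and 136 scaled CPM in the B2 libraries and at 95.5, 110, 111, 150 and 103 in the B1 libraries. The day 12 library lay at the SSC1-4 median, and *Hif1a* rose by 0.97 ± 0.14 (adjusted p = 2.78e-09). *Epas1* was at 160, 54.6 and 63.2 in B2 and at 33.6, 33.5, 37.7, 27.6 and 33.4 scaled CPM in B1. Every RPG3 library was above every SSC1-4 library for *Epas1*, the batches did not overlap, and the rise was 3.41 ± 0.35 (10.6-fold, adjusted p = 3.44e-14).

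Both transporters rose in RPG3. *Slc2a1* was at 196, 694 and 546 scaled CPM in B2 and at 552, 618, 673, 597 and 717 in B1, and rose by 2.41 ± 0.20 (5.32-fold, adjusted p = 3e-18). *Slc2a3* was at 318, 279 and 343 in B2 and at 396, 376, 474, 493 and 542 in B1, and rose by 2.91 ± 0.16 (7.49-fold, adjusted p = 3.65e-29). All 8 *Slc2a3* sums exceeded the highest SSC1-4 library, as did all *Slc2a1* sums but that of day 12.

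The largest fold among the 10 was that of *Ndufa4l2*, at 57.7 and 46.9 scaled CPM on day 18, 115 to 193 in B1 and 0.701 in the day 12 library (6.97 ± 0.58, 125-fold, adjusted p = 6.68e-19). *Egln3*, itself a brake on HIF, was at 73.1 and 75.1 on day 18, 97.8 to 157 in B1 and 9.81 in the day 12 library (3.28 ± 0.31, 9.73-fold, adjusted p = 4.47e-16). The day 12 library was thus inside the SSC1-4 range for both and had the highest *Epas1* of all. *Bnip3* was at 77.8, 463 and 145 in B2 and 316 to 695 in B1 and rose 3.73-fold (1.90 ± 0.26, adjusted p = 1.6e-09), and *Pdk1* was at 217, 351 and 341 in B2 and 321 to 463 in B1 and rose 2.3-fold (1.2 ± 0.12, adjusted p = 1.96e-14). *Ankrd37* was at 24.2 to 68.4 in B2 and 88.4 to 168 in B1 (1.26 ± 0.32, adjusted p = 0.000526), and *Vegfa* was at 0.701 to 8.90 in B2 and 13.6 to 23.2 scaled CPM in B1 (1.77 ± 0.49, adjusted p = 0.00161). For both, no B2 library reached the B1 range.

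In this comparison 56.8% of the genes tested were called and 25.2% were called higher. Without the day 12 library all 10 were still called, with *Epas1* at 2.97 and *Ndufa4l2* at 7.15. Within batch B2, *Ankrd37* (0.57, adjusted p = 0.516) and *Vegfa* (0.07, adjusted p = 0.969) did not pass. Blocking on the library, in the 2 libraries holding both classes, left 8 called, and *Ankrd37* (0.41, adjusted p = 0.232) and *Vegfa* (1.31, adjusted p = 0.362) were not.

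RPG4 had raised transporters and raised targets other than *Pdk1*, with *Epas1* near the bottom. In its 2 libraries of day 20 (8 and 13 cells), *Epas1* was at 3.18 and 1.72 scaled CPM, inside the SSC1-4 range (-1.11 ± 0.93, 95% interval -2.93 to 0.71, adjusted p = 0.38). *Pdk1*, at 141 and 138, was also inside it (-0.14 ± 0.25, -0.63 to 0.36, adjusted p = 0.702). The other 8 genes rose. *Slc2a1* was at 782 and 613 scaled CPM (6.46-fold, adjusted p = 1.59e-10), *Slc2a3* at 509 and 412 (8.57-fold, adjusted p = 3.35e-18) and *Ndufa4l2* at 179 and 199 (213-fold, adjusted p = 9.13e-16). *Hif1a* was at 87.5 and 150 and rose 2.02-fold (adjusted p = 0.000696). *Egln3*, *Bnip3*, *Ankrd37* and *Vegfa* rose 8.49-fold, 4.12-fold, 2.85-fold and 6.14-fold. The 8 of 10 called higher stand beside 12.6% of all genes called higher and 27.7% called in either direction. Without replicate 2 of day 20, 5 were called, and *Hif1a* (adjusted p = 0.339), *Vegfa* (0.602) and *Ankrd37* (0.185) were lost.

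Tested directly, RPG4 differed from RPG3 in 2 of the 10 genes, against 8.93% of all genes called and 4.99% called lower. *Epas1* fell by 4.52 on the log2 scale (SE 1.18, 22.9-fold, adjusted p = 0.0063) and *Pdk1* fell by 1.34 (SE 0.30, adjusted p = 0.00109). The other 8 differed by between -0.20 and 0.85 and were not called. Both RPG4 libraries were of batch B1 and held RPG3 cells too. Within batch B1 *Epas1* fell by 3.75 (SE 1.16, 13.5-fold, adjusted p = 0.0282) and *Pdk1* fell by 1.43 (adjusted p = 0.000707), and blocking on the library kept both calls. Every RPG3 library, at 27.6 scaled CPM or more, was above both RPG4 libraries for *Epas1*. With 1 RPG4 library left out, the other was assumed to vary like the remaining groups, and *Epas1* differed by -4.99 or -4.11 with an adjusted p of 0.0774 or 0.165. The call of *Pdk1* was lost without replicate 2 of day 20 (-1.32, adjusted p = 0.0528) and with sums per batch and day (-1.56, adjusted p = 0.0695). Without TMM both calls stood, and the share of all genes was 5.72% higher and 3.32% lower. Markers of endothelial cells, in which *Epas1* is well known, were read for the same sums. Their summed level over 5 genes was 15.9 to 43.0 scaled CPM in RPG3, 0.766 to 2.39 in RPG4 and 38.5 to 103 in the gPSC and ESC libraries, with the defining marker *Cdh5* at 0 in all of these. Most of the sum in RPG3 and the lines was *Pecam1*, at a mean of 21.9 in RPG3, 68.4 in gPSC and 89.8 in ESC. In RPG3, 3 of the 5 rose and 2 fell.

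Shares of cells with at least 1 UMI were compared at 1 depth. After each cell was thinned to 100000 UMIs, *Ndufa4l2* was seen in 3.80% of SSC1-4 cells, 37.0% of RPG1 cells, 12.5% of RPG2 cells, 84.9% of RPG3 cells and 90.2% of RPG4 cells, where unthinned shares were 6.53% in SSC1-4 and 89.3% in RPG3. *Epas1* was seen in 20.8% of SSC1-4 cells, and RPG1 to RPG4 gave 26.5%, 36.1%, 70.5% and 12.9%. After thinning, the RPG4 share of *Epas1*, from 32 cells, was below that of SSC1-4. Before thinning it was above, at 33.3% against 29.2%, and neither order was tested. For the thinned shares, 385 SSC1-4, 18 RPG3 and 1 RPG4 cells were too shallow to enter. *Ndufa4l2* in meiotic cells, a class with the gene at 0 to 1.77 scaled CPM, was seen in 1.68% of thinned cells. Median depths before thinning were 248474 UMIs per cell in SSC1-4, 247049 in meiotic cells and 285699 in RPG3.

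In the established lines, read from 1 library each and so without a test, the factors and *Slc2a3* stayed high while most hypoxia targets were low. gPSC passage 1, gPSC passage 15 and ESC had *Epas1* at 38.4, 93.2 and 46 scaled CPM and *Hif1a* at 91.2, 138 and 88.2. *Slc2a3* was at 341, 532 and 538, within the RPG3 range, and *Slc2a1* at 166, 199 and 329, below 7 of 8 RPG3 libraries. *Bnip3* was at 25.6, 8.03 and 23.1 scaled CPM, below all RPG3 libraries, and *Ankrd37* at 3.22, 1.05 and 2.16. *Ndufa4l2* had 0 UMIs in both gPSC libraries, which allows up to 0.248 and 0.287 scaled CPM (the level of 3 counts), and 13 UMIs in ESC (0.967 scaled CPM, exact Poisson 95% interval 0.515 to 1.65, for counting error only). *Pdk1* was at 100.2, 45.3 and 24.4, *Egln3* at 9.0, 9.46 and 15 and *Vegfa* at 5.04, 16.4 and 6.62. High *Epas1* mRNA thus occurred with *Ndufa4l2* at 46.9 scaled CPM or more in 7 RPG3 libraries and with *Ndufa4l2* under 1 in the lines.

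Ordered by mean level, *Epas1* ran from gPSC passage 15 through RPG3, ESC, gPSC passage 1, RPG2, neural, RPG1, early-pluripotent, SSC1-4, meiotic and fibroblast to RPG4. Only ESC against gPSC passage 1 and gPSC passage 1 against RPG2 were neighbours whose ranges (over libraries, or the counting interval for 1 library) did not overlap. For *Hif1a* the order ran from gPSC passage 15 and RPG4 to SSC1-4 and meiotic, and all neighbours overlapped. *Slc2a1* was highest in RPG4 and RPG3 and lowest in the early-pluripotent and meiotic classes.

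Along the branches that did not lead to pluripotency, the genes changed in part. In the neural class (12 sums, 7 of them with 5 to 11 cells), 9 of 10 rose and *Pdk1* differed by 0.07, where 10.7% of all genes were called and 5.77% were called higher. *Ndufa4l2* was at 94.7 and 46.4 scaled CPM in replicates 1 and 2 of day 27 and at 0 to 3.21 in the other 10 sums (3.96 ± 0.53, adjusted p = 5.46e-08). *Bnip3* ranged from 92.0 to 484 (1.17 ± 0.24, adjusted p = 0.00035) and *Vegfa* from 0 to 53.8 (1.81 ± 0.44, adjusted p = 0.00324). *Slc2a1* ranged from 92.3 to 326 and rose 1.99-fold (adjusted p = 0.000145). *Hif1a* (0.39), *Slc2a3* (0.63), *Egln3* (0.87), *Epas1* (1.06) and *Ankrd37* (1.07) rose as well. Blocking on the library, in 10 libraries, left 1 of the 9 genes tested, *Bnip3* (0.89, adjusted p = 4.86e-06), and sums of at least 10 cells left 4. With sums per batch and day, *Bnip3* did not pass (0.95, adjusted p = 0.14), and the 3 genes called were *Slc2a3*, *Vegfa* and *Ndufa4l2*. Fibroblast and feeder markers summed to 13.5 to 404 scaled CPM in the neural class against 3.69 to 130 in SSC1-4, with 1 of 6 called higher, and their part was not tested.

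In the 5 fibroblast sums, *Hif1a* was at 120, 137, 77.9, 86.3 and 123 scaled CPM, and rose by 0.89 ± 0.16 (adjusted p = 2.95e-05). *Ndufa4l2* was at 1.75, 10.8, 2.02 and 1.16 scaled CPM and at 74.4 in the day 27 sum of 6 cells. It rose by 4.28 ± 0.66 (adjusted p = 3.5e-07) with that sum and was 2.15 without it (adjusted p = 0.113). *Ankrd37* (-1.10), *Slc2a3* (-0.66), *Bnip3* (-0.40), *Epas1* (-0.22), *Pdk1* (-0.15), *Slc2a1* (-0.13), *Vegfa* (-0.13) and *Egln3* (0.28) were not called. These were 2 of 10, against 5.63% of all genes called and 5.23% called higher, and blocking on the library, in 4 libraries, edgeR called 0, with 2 at an unadjusted p under 0.05 (DESeq2 without a block called 2). The fibroblast and feeder markers summed to 246 to 2096 scaled CPM in this class and to 5.74 to 28 in RPG3.

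The early-pluripotent class of 3 B2 libraries had *Ankrd37* at 5.47, 8.45 and 8.29 scaled CPM, a fall by 2.56 on the log2 scale (adjusted p = 0.0337) that was lost whenever 1 library was left out. *Bnip3* (-1.49), *Slc2a1* (-1.35), *Pdk1* (-0.67), *Vegfa* (-0.65), *Egln3* (0.04), *Slc2a3* (0.06), *Epas1* (0.16), *Hif1a* (0.45) and *Ndufa4l2* (1.11) were not called. It was 1 of 10, against 1.29% of all genes called and 0.374% called lower, and with the block 0 passed edgeR, with 2 at an unadjusted p under 0.05, while DESeq2 called 4. In the 6 meiotic sums, all of day 16, *Slc2a1* was at 36.3 to 50.7 scaled CPM and *Ankrd37* at 8.21 to 16.1. They fell by 1.37 (adjusted p = 0.00361) and by 1.96 (adjusted p = 0.008), 2 of 10 against 1.86% of all genes called and 0.764% called lower. *Ndufa4l2* (-1.01), *Vegfa* (-0.70), *Egln3* (-0.70), *Slc2a3* (-0.57), *Pdk1* (-0.27), *Bnip3* (-0.24), *Hif1a* (-0.10) and *Epas1* (-0.06) were not called. SSC1-4 cells of the same day were low as well, in 5 sums with 499 *Slc2a1* and 116 *Ankrd37* UMIs in all. The meiotic sums held 5311 and 1409. Blocking on the library, in 5 libraries, both differences turned positive (0.36 and 0.55), which rests on these sparse SSC1-4 counts. The block called 0 of 9, with 0 at an unadjusted p under 0.05, and DESeq2 without it called 2.

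**Figure D2:**
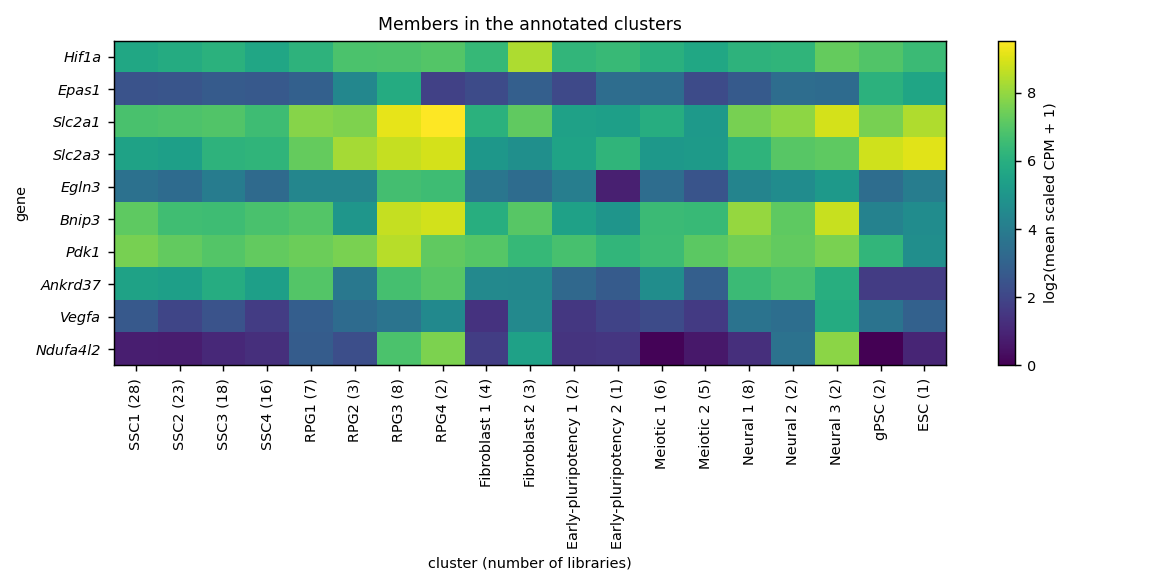
Colour gives log2(mean scaled CPM + 1) of each gene over the libraries of each annotated cluster, with the number of libraries in brackets. Neural 3 has *Ndufa4l2* at 230.5 and *Bnip3* at 419 scaled CPM, and Fibroblast 2 has *Hif1a* at 324.

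The finer clusters placed these signals. Neural 3, in 2 libraries, held *Ndufa4l2* at a mean of 230.5 scaled CPM, *Vegfa* at 57.4, *Slc2a1* at 481 and *Bnip3* at 419, beside RPG4 means of 199.8, 22.1, 738 and 475 on the scale of the clusters. *Vegfa* was thus higher and *Slc2a1* lower than in RPG4, and *Epas1* was at 9.0 in Neural 3. Neural 1 and Neural 2 had *Ndufa4l2* at 1.45 and 11. Fibroblast 2, in 3 libraries, had *Hif1a* at 324 and *Ndufa4l2* at 42.6, against 83.5 and 2.29 in Fibroblast 1. These are means of clusters, with no test.

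Whether targets moved with the mRNA of their factors was asked at 3 levels. Over the 17 cluster means of log2(CPM + 1), *Ndufa4l2* (r = 0.73) and *Vegfa* (r = 0.71) followed *Hif1a* most closely of the 8 targets, ranking 1126 and 1334 of 20029 genes. *Slc2a1* had r = 0.49, *Slc2a3* 0.22 and *Pdk1* -0.29 with *Hif1a*. With *Epas1*, r was highest for *Slc2a3* (0.52) and *Slc2a1* (0.39) and 0.08 for *Bnip3*. The genes most like *Hif1a* were *Zmynd11* (0.97), *E430018J23Rik* (0.94) and *Emc7* (0.94), and those most like *Epas1* were *Jade1* (0.91), *Gm5089* (0.88) and *Ldhd* (0.88). Clusters share libraries, so these values describe the pattern and carry no p.

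Among the 36 SSC1-4 libraries, 0 of 16 relations of 2 factors with 8 targets passed a permutation test after adjustment (smallest adjusted p = 0.173, two-sided), and 4 had an unadjusted p under 0.05. Those 4 were all with *Epas1*. They were *Pdk1* (r = -0.42, permutation p = 0.0114, and rho = -0.26, p = 0.121), *Ankrd37* (r = 0.37, permutation p = 0.0276, and rho = 0.26, p = 0.12), *Slc2a1* (r = 0.36, permutation p = 0.0323, and rho = 0.22, p = 0.201) and *Egln3* (r = 0.33, permutation p = 0.0473, and rho = 0.33, p = 0.0502). For *Hif1a*, r lay between -0.27 and 0.23. Within batch B1 r lay between -0.40 and 0.37 over 29 libraries, and within batch B2 between -0.70 and 0.92 over 7, with 0 passing in either and 1 and 2 at an unadjusted p under 0.05. Without the 2 libraries farthest from the median of the factor, 0 passed and 1 had an unadjusted p under 0.05.

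Over the 8 RPG3 libraries, *Epas1* separated into 54.6 to 160 scaled CPM in batch B2 and 27.6 to 37.7 in batch B1, so no pooled r is given for it, and 3 and 5 libraries are too few within a batch. Of its 8 relations, 4 passed the exact permutation test over the pooled libraries (*Egln3*, *Pdk1*, *Vegfa* and *Ndufa4l2*, all negative), and 5 passed with a pseudocount of 5 CPM. Without day 12 replicate 2 alone, 3 passed (*Egln3*, *Vegfa* and *Ndufa4l2*), and without the 2 libraries farthest from the median 0 passed, with 2 at an unadjusted p under 0.05. *Hif1a* overlapped between the batches, with r of 0.09 to 0.82 and rho of -0.17 to 0.45 over the 8 targets. None of these passed the exact permutation test (smallest p = 0.03, adjusted over 16 relations 0.0718, two-sided), and 1 had an unadjusted p under 0.05. Without the 2 libraries farthest from its median, r of *Hif1a* lay between -0.72 and 0.55, with 0 at an unadjusted p under 0.05. Within a library, single RPG3 cells were correlated on log2(CPM + 10) in the 6 libraries with at least 20 of them. The median r over libraries ran from -0.10 for *Epas1* with *Bnip3* to 0.27 for *Epas1* with *Pdk1*. *Hif1a* with *Egln3* had r of 0.11 to 0.36 (median 0.18), positive in each library. Such weak values in sparse counts describe these cells only.

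**Figure D3:**
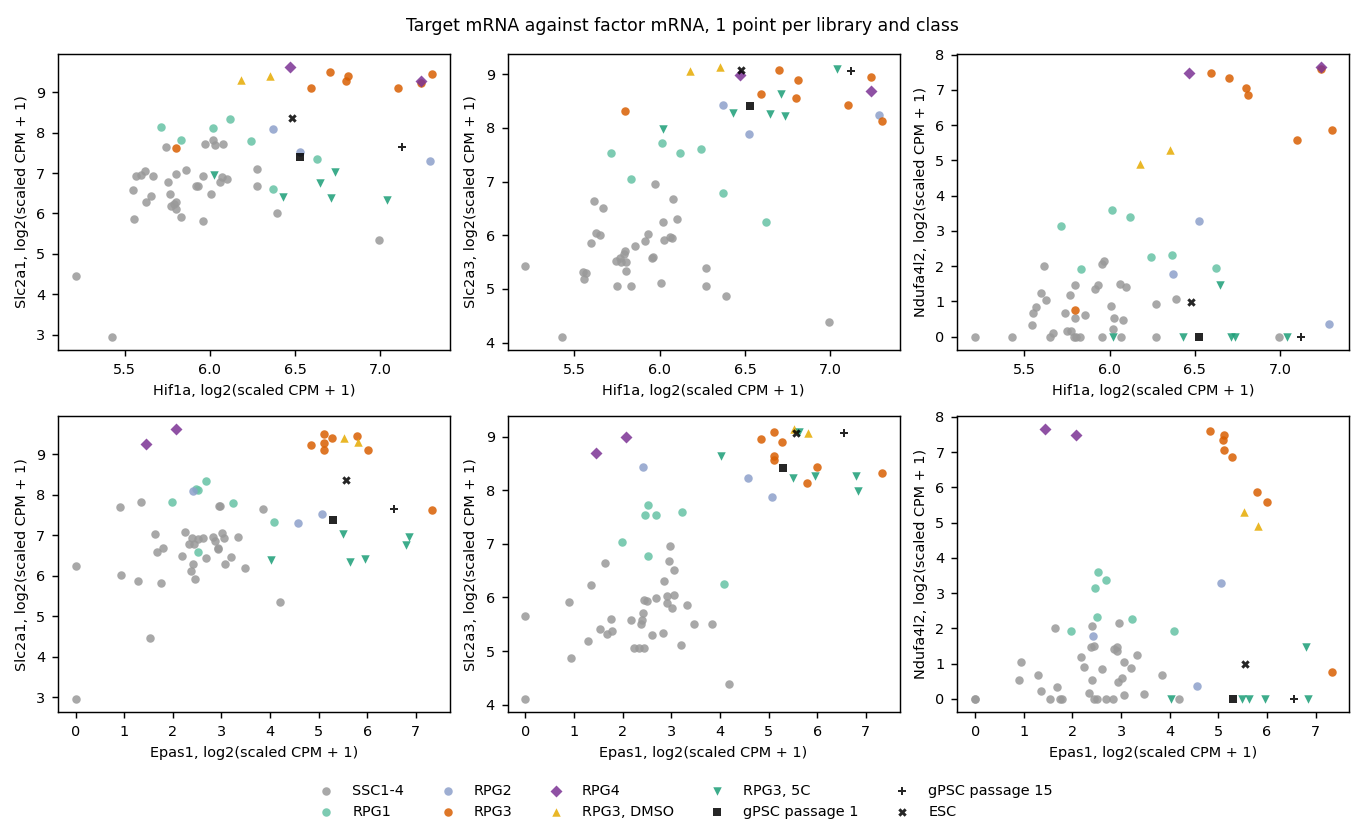
Points are libraries of 1 class, with log2(scaled CPM + 1) of the factor on the x axis (*Hif1a* above, *Epas1* below) and of the target on the y axis (*Slc2a1*, *Slc2a3* and *Ndufa4l2*). scTrio-seq2 points of RPG3 were scaled in their own table, so their height against the other points is not comparable. 5C RPG3 samples keep *Epas1* at 15.2 to 114 scaled CPM with *Ndufa4l2* at 0 in 5 of 6, and both RPG4 libraries have *Ndufa4l2* at 179 and 199 scaled CPM with *Epas1* at 3.18 and 1.72.

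In RPG3 cells with 5C, *Slc2a1*, *Bnip3* and *Ankrd37* were lower than with DMSO, while *Hif1a* and *Epas1* did not pass the test. *Ndufa4l2* was lower in level as well, without a usable test. In RPG3 cells, as the authors predicted them for scTrio-seq2, *Slc2a1* was at 630 and 669 scaled CPM in the 2 DMSO samples of day 20 and at 80.1, a median of 96.0 and 129 in the 6 samples with 5C. The groups did not overlap, and *Slc2a1* fell by 2.7 on the log2 scale (SE 0.19, 6.48-fold, adjusted p = 9.45e-07). *Bnip3* was at 95.5 and 74.4 in DMSO and at 3.15 through 19.8 to 29.8 with 5C, and fell by 2.2 (SE 0.52, adjusted p = 0.00849). *Ankrd37* was at 29.9 and 33.9 against 2.99 through 5.24 to 8.71 scaled CPM, and fell by 2.51 (SE 0.54, adjusted p = 0.00471). *Ndufa4l2* was at 28.9 and 38.5 in DMSO and at 0 in 5 of 6 samples with 5C, with 1.77 scaled CPM in replicate 5 (adjusted p = 0.000478, and 0.0554 with DESeq2). The 6 samples with 5C held 8 UMIs of *Ndufa4l2* in all, so it passed the filter on low counts only through the DMSO samples where it was high, and its p adds no support to these levels.

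For the factors the intervals spanned 0. *Hif1a* was at 71.5 and 80.8 scaled CPM in DMSO and at 64.0 through 101 to 131 with 5C (0.34, 95% interval -0.19 to 0.88, adjusted p = 0.45). *Epas1* was at 55.0 and 44.9 against 15.2 through 54.8 to 114 (0.39, -0.64 to 1.42, adjusted p = 0.672). The groups overlapped for both. *Slc2a3* was at 533 and 560 against 251 through 306 to 545 (-0.66, adjusted p = 0.0571), *Pdk1* at 268 and 295 against 80.1 through 162 to 257 (-0.76, adjusted p = 0.0763) and *Egln3* at 18.6 and 21.4 against 0 through 6.43 to 9.73 (-1.83, adjusted p = 0.123). For *Pdk1* and *Egln3*, not called, the groups did not overlap either, with 2 samples on the DMSO side. Of 9 genes tested, *Slc2a1*, *Bnip3* and *Ankrd37* fell and 0 rose, where 15.6% of all genes were called and 9.23% were called lower. *Ndufa4l2*, also among the 9, is left out of this count because of its filter. With either DMSO sample left out, the other was assumed to vary like the samples with 5C. *Bnip3* and *Ankrd37* were then lost, and *Slc2a1* was kept beside *Ndufa4l2*, whose place in the test rested on DMSO alone. Spermatogonial markers summed to 142 to 429 scaled CPM with 5C and to 76.2 to 97.8 in DMSO, and pluripotency markers to 1811 to 2627 and 3155 to 3258. Their part in the result was not tested, nor was that of the day. Untreated RPG3 cells of day 12, in 1 library of 7 cells, had *Slc2a1* at 196, *Bnip3* at 77.8 and *Ndufa4l2* at 0.701 scaled CPM. These were the lowest values of the untreated RPG3 libraries, whereas *Ankrd37* was lowest in a day 18 library.

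**Figure D4:**
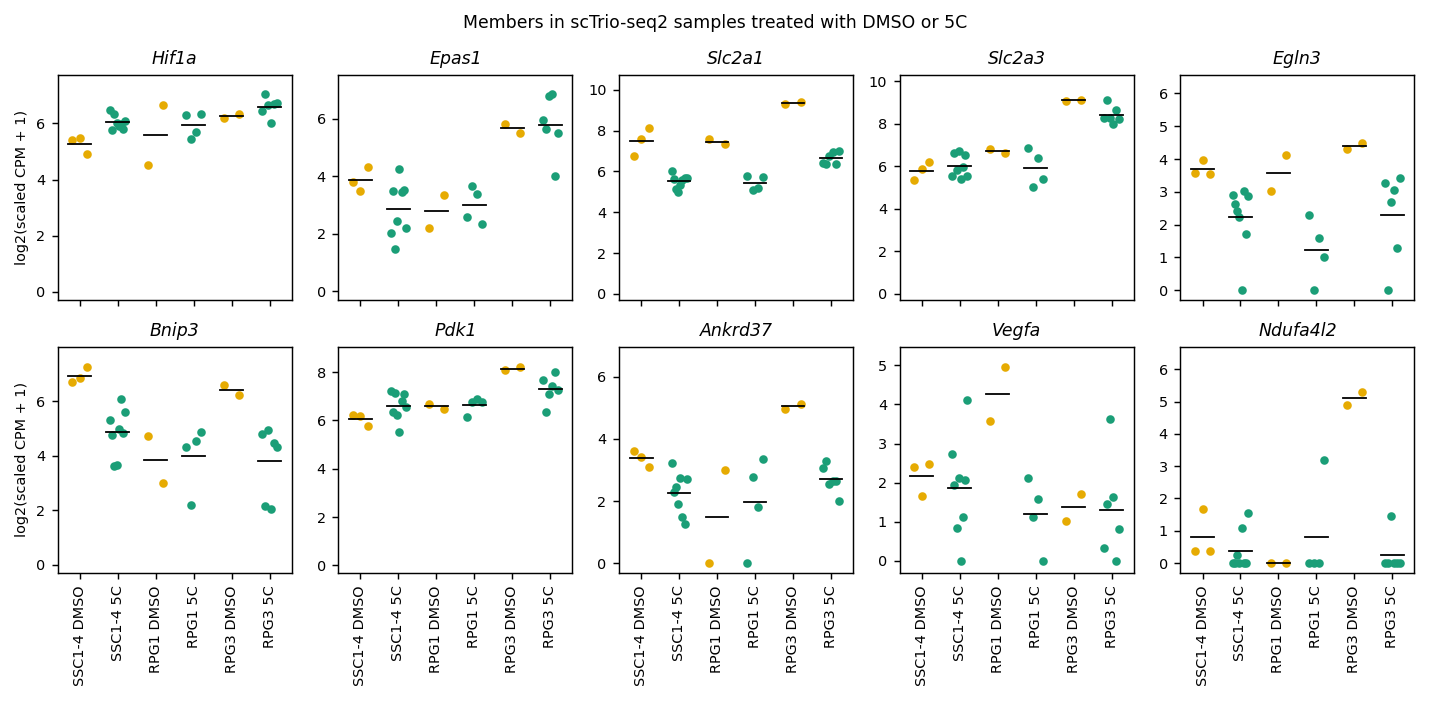
Each panel shows 1 gene as log2(scaled CPM + 1) per scTrio-seq2 sample in SSC1-4, RPG1 and RPG3 cells, orange for DMSO and green for 5C, with the mean of the log2 values as a line. *Slc2a1* is lower with 5C in all 3 classes with no overlap, while *Hif1a* overlaps between treatments in RPG1 and RPG3.

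In SSC1-4 cells with 5C, *Slc2a1* and *Bnip3* were lower and *Hif1a* was higher. *Slc2a1* was at 109, 190 and 282 scaled CPM in 3 DMSO samples and at 31.1 through 47.7 to 64.1 in 8 samples with 5C, and fell by 2.07 (SE 0.22, 4.19-fold, adjusted p = 5.05e-07). *Bnip3* was at 103, 115 and 152 against 11.2 through 29.1 to 66.4, and fell by 1.94 (SE 0.33, adjusted p = 0.000167). Neither gene overlapped between the groups. *Hif1a* was at 41.7, 43.2 and 28.8 scaled CPM in DMSO and at 53.1 through 63.3 to 88.3 with 5C, and rose by 0.82 ± 0.23 (1.76-fold, adjusted p = 0.0109). That call was lost without DMSO replicate 5, which pools day 0 and day 24 cells (0.65, adjusted p = 0.106). *Epas1* (-0.92, adjusted p = 0.286), *Egln3* (-1.39), *Ankrd37* (-1.14), *Pdk1* (0.66, adjusted p = 0.0664), *Slc2a3* (0.30) and *Vegfa* (0.23) did not pass. That is 3 of 9 genes tested, against 21.2% of all genes, 10.7% higher and 10.6% lower. Fibroblast and feeder markers summed to 26.8 to 54.3 scaled CPM in DMSO and 5.52 to 17.4 with 5C, and pluripotency markers to 30.1 to 125 and 67.3 to 219, and their part was not tested. In untreated SSC1-4 cells, mean *Slc2a1* was 98.4, 86.5 and 39.4 scaled CPM on days 12, 14 and 16 and 125 and 108 on days 20 and 23. Mean *Bnip3* was 166, 98.7 and 93.1 against 115 and 97.3, and the part of the day was not tested.

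In RPG1 cells, *Slc2a1* was at 191 and 161 scaled CPM in DMSO and at 32.7 to 53.9 in 4 samples with 5C, a fall by 2.02 (SE 0.37, adjusted p = 0.00163). It was the 1 call among 5 genes tested, where 5.61% of all genes were called and 3.45% were called lower. *Hif1a* differed by -0.03 there (95% interval -1.03 to 0.97), *Slc2a3* by -0.61, *Pdk1* by 0.08 and *Bnip3* by 0.24. Spermatogonial markers in RPG1 summed to 1621 to 1817 scaled CPM with 5C and to 1842 to 2224 in DMSO, without overlap, and pluripotency markers to 196 to 422 and 333 to 379, and their part was not tested. Outside the tests, *Slc2a1* was at 868 and 871 scaled CPM in DMSO RPG4 cells and at 87.2 in the 1 5C sample with at least 5 such cells, and at 492 in 1 DMSO sample of RPG2 against 30.4 to 120 in 3 with 5C. Spermatogonial markers summed to 684 scaled CPM in that 5C sample of RPG4 against 21.4 to 24.5 in DMSO, and pluripotency markers to 1062 against 2006 to 2053. In RPG2 the sums were 236 to 952 with 5C against 125 for spermatogonial and 1762 to 2162 against 3071 for pluripotency markers, and their part was not tested. The difference between 5C and DMSO was unequal between RPG3 and SSC1-4 for *Pdk1* alone of the 10 genes (-1.43 ± 0.40, adjusted p = 0.02). That is near the share of all genes, of which 9.75% were called and 5.69% were called lower. This comparison was added after the data were seen. All 6 5C samples with RPG3 sums also gave SSC1-4 sums, which the fit treats as separate, whereas no DMSO sample gave both. The DMSO sums came from 2 samples of day 20 for RPG3 and from 3 others, of day 20, day 24 and days 0 and 24 together, for SSC1-4, so class and sample cannot be told apart there. *Slc2a1* missed it (-0.65, 95% interval -1.31 to 0.02).

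With time, *Slc2a3* rose within SSC1-4 cells that had not left the starting class, though not at each step. Its mean was 32.4 scaled CPM in the day 0 library, 28.4 in the day 10 library, 32.9 over 2 libraries of day 12, 47.3 over 6 of day 14, 34.9 over 5 of day 16 and 42.4 over 5 of day 18. It was 69.5 over 7 libraries of day 20, 75.3 over 6 of day 23 and 59.5 over 3 of day 27. The slope was 0.62 ± 0.15 per 10 days (adjusted p = 0.0124), the 1 of 10 genes called, where 4.02% of 17882 genes were called and 1.32% were called higher. *Slc2a1* started at 135, had its low of 39.4 at day 16 and reached 211 at day 27 (0.41 per 10 days, adjusted p = 0.172). Without the day 0 library, *Slc2a1* (0.84, adjusted p = 0.0114) and *Ankrd37* (1.26, adjusted p = 0.0201) were called too. *Hif1a* (-0.16), *Epas1* (0.28), *Pdk1* (-0.13), *Bnip3* (-0.04), *Ndufa4l2* (0.04), *Egln3* (0.09) and *Vegfa* (0.10) were not called. Within batch B2, which spans days 14 to 18 here, the slope of *Slc2a3* was 0.0024 (SE 1.24). In 12 sums per batch and day it was 0.50 ± 0.14 (adjusted p = 0.222). Without TMM the call stood, and 2.42% of all genes were called higher and 1.22% lower.

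**Figure D5:**
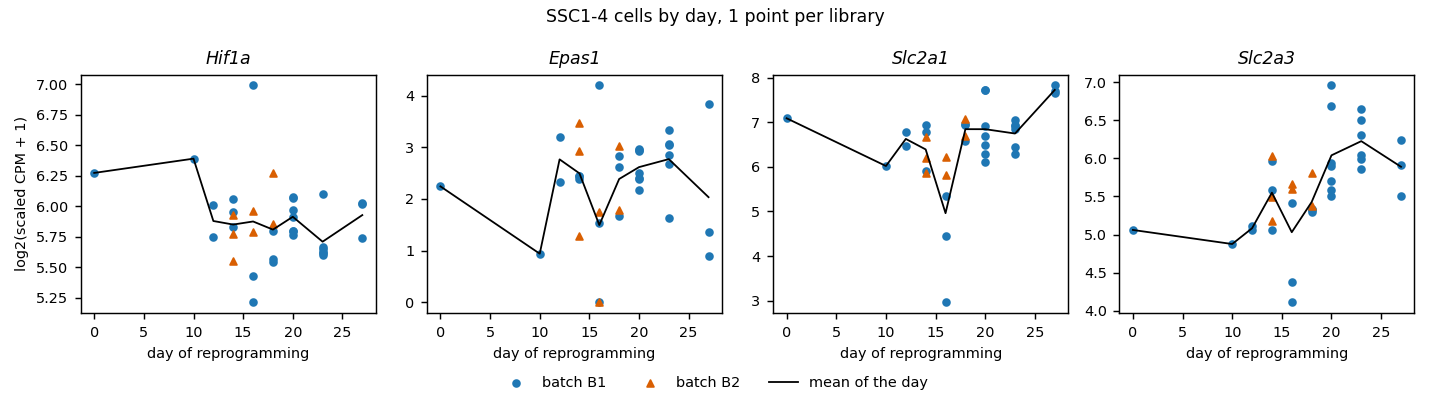
Points are SSC1-4 sums per library against the day of reprogramming, as log2(scaled CPM + 1), circles for batch B1 and triangles for batch B2, and the line joins the means of the log2 values per day. *Slc2a3* is at 28.4 to 33.4 scaled CPM on days 0, 10 and 12 and at 56.9 to 99.2 on day 23, while *Hif1a* and *Epas1* show no called trend.

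The wider pathway was read from lists of other known members, also chosen with earlier results of these data known. Counts from them describe the lists only. Of 31 other HIF targets, 8 rose and 0 fell in RPG1, against 2.58% of all genes called higher and 2.03% called lower. In RPG2, 5 rose and 5 fell, near the 17.5% and 18.5% of all genes. RPG3 had 15 that rose and 3 that fell, against 25.2% and 31.5% of all genes, and the 18 of 31 called in either direction were near the 56.8% of all genes. RPG4 had 13 and 2, against 12.6% and 15.1%. The list's median log2 fold change was 0.58 in RPG3 and 0.91 in RPG4, where the medians of all genes were -0.25 and -0.54, and that of all genes in RPG2 was -0.52. *Slc16a3*, the lactate exporter, rose by 4.4 in RPG3 (adjusted p = 3.39e-22) and the glycolytic *Pgk1* by 4.31 (adjusted p = 1.88e-25), and *Stc2* by 2.97. *Lox*, which crosslinks collagen, fell in RPG3 (adjusted p = 0.0226), *Bhlhe41* fell by 1.62 and *Ero1l* fell by 0.59. In RPG1 the 3 with the largest rise were *Bhlhe40* (2.16), *Slc16a3* (2.07) and *Pgk1* (1.39). In RPG2 *Pgk1* (2.79) and *Ldha* (1.11) rose, and the peptide *Adm* fell (adjusted p = 0.000692). In RPG4 *Pgk1* (5.21), *Vldlr* (5.02) and *Slc16a3* (4.72) rose most, and the neural class had 15 that rose and 1 that fell, against 5.77% and 4.97% of all genes.

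With 5C, 10 of 24 HIF targets tested in RPG3 fell and 0 rose, with a list median of -1.0 against 0.07 over all genes, of which 9.23% were called lower and 6.36% higher. Without TMM this background turned over, to 3.78% lower and 15.4% higher with a median of 0.51, and the list still had 10 that fell and 0 that rose, with a median of -0.57. *Slc16a3* fell by 3.92 (adjusted p = 0.00335), *Stc2* fell (adjusted p = 0.0298) and *Ddit4*, an inhibitor of mTORC1, fell by 1.90 (adjusted p = 0.00494). In SSC1-4, 3 of 26 rose and 6 fell, against 10.7% and 10.6% of all genes. *Bhlhe40* rose (adjusted p = 8.39e-05) and the hexokinase *Hk2* by 1.02 (adjusted p = 0.0147), whereas *Ddit4* fell by 2.15 and *Eno1* fell by 1.46. In RPG1, 1 of 18 rose and 4 fell, against 2.16% and 3.45% of all genes (4.1% and 2.09% without TMM, with the same list counts). Among the 4 were *Eno1* (-1.58), *Ldha* (-1.44) and *Aldoa* (-1.19).

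Of 9 partners and regulators of HIF, 5 fell and 0 rose in RPG3, 5 fell and 1 rose in RPG4 and 3 fell in RPG2, where 31.5%, 15.1% and 18.5% of all genes were called lower. The list's median log2 fold change was -0.52, -0.71 and -0.66 in these classes, beside -0.25, -0.54 and -0.52 over all genes. *Hif1an*, the asparaginyl hydroxylase that blocks HIF activity, fell by 1.34 in RPG3 (adjusted p = 6.86e-10), and *Vhl*, which directs HIF alpha to destruction, fell by 0.97 (adjusted p = 2.54e-06). *Siah2*, a ligase of prolyl hydroxylases, fell by 2.78 (adjusted p = 5.42e-07). In RPG4 *Egln1*, the main oxygen sensor, rose by 1.22 (adjusted p = 0.00366). In RPG2 *Arnt* fell by 0.93.

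Of 9 other facilitative transporters, 1 rose (*Slc2a8*, by 1.04) and 4 fell in RPG3, among them *Slc2a13*, *Slc2a2* and *Slc2a10*, against 25.2% of all genes called higher and 31.5% called lower. Of 7 genes of the integrated stress response, which amino acid lack and ER stress switch on, 5 rose in RPG3 and 6 in RPG4, against 25.2% and 12.6% of all genes. *Chac1* rose by 3.83 and *Asns* by 1.65 in RPG3. Among 6 early response and heat shock genes, which handling can change, 1 rose and 4 fell in RPG3, beside the same 25.2% and 31.5%, with *Ier2* at 1.95 and *Hspa1a* at -3.24. For 5C against DMSO without TMM, 3 of 6 rose and 1 fell in SSC1-4, against 11.5% and 9.6% of all genes. There, 1 of 6 rose in RPG1 and 1 of 5 in RPG3, against 4.1% and 15.4%, and 0 fell in either. The share of mitochondrial UMIs had a median of 1.13% in SSC1-4 and 0.79% in RPG3 sums. The part of any of these in the levels above was not tested.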

How the data were processed

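Expression was measured as UMI counts. The authors deposited cleaned counts per gene and cell, made per the labels and their methods with UMI-tools, STAR 2.7.2b and featureCounts 2.0.0 on mm10, after quality filters on cells, with no normalization. The cell annotation that the authors deposited also gives mitochondrial percent per cell, clusters, and, for scTrio-seq2, classes predicted from them.

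Counts were summed per library and class over at least 5 cells. The 5C samples held 5880774 to 10723044 UMIs and the DMSO samples 3888311 to 8059618, and the 15426 genes in both scTrio-seq2 tables were used. Plate barcodes recur in each library and do not mark shared cells. edgeR 4.0.16 (R 4.3.3, limma 3.58.1) fitted quasi-likelihood models with TMM scaling over all genes that passed its filter, separately for the class sums, the SSC1-4 days and each scTrio-seq2 class, with Benjamini-Hochberg adjustment at 0.05. The scripts were tested on simulated data. DESeq2 1.42.0, other scalings, filters, batches and left-out libraries were alternatives. Sums without TMM, the same libraries without the block, correlations without TMM or without day 12 replicate 2, and the comparison of 5C against DMSO between classes were chosen after seeing the data. Python 3.11.15, numpy 2.4.6, pandas 2.3.3, scipy 1.17.1 and matplotlib 3.10.9 served the rest, with 100000 permutations for correlations and exact Poisson intervals for single libraries, which cover counting error only.

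The 10 genes and all lists were chosen with earlier results of these data known. The 10 genes were read in every comparison where they passed the filter, and up to 3 called genes with the largest fold in each direction are named from a list. Of the annotated clusters, 17 had a sum, 1 fewer than planned. Classes of 1 library share its culture: deviations from the class means correlated at 0.10 to 0.36 for RPG1, RPG2, RPG3 and early-pluripotent cells (2 libraries each), 0.14 to 0.34 for neural, 0.13 to 0.45 for fibroblast and -0.02 to 0.33 for meiotic cells, and at 0.0839 for RPG4 with RPG3 (2 libraries), so values with the library as a block are given where they change a call.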

Additional observations from a re-analysis of the deposited data

Results flagged for a closer look

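Among 70 groups of 4 to 10 samples, 9 had a sample far from the others by Dixon's criterion. Chance alone meets it in about 1 of 20 groups of independent, normally spread values. Groups here share libraries and some lie near 0, so no excess is read from the 9. *Epas1* in RPG3 was highest in day 12 replicate 2, at 160 scaled CPM against 63.2 in the next library (7 cells, 228 UMIs). *Slc2a1* in RPG3 was lowest in the same library, at 196 against 546. *Epas1* in RPG1 was highest in day 18 replicate 3, at 15.9 against 8.39 scaled CPM. *Ndufa4l2* in fibroblasts was highest in day 27 replicate 5, at 74.4 against 10.8 (6 cells), and in meiotic cells in day 16 replicate 3, at 1.77 against 0.391. With 5C, *Vegfa* was highest in replicate 5 of RPG3 (11.3 against 2.1) and in replicate 8 of SSC1-4 (16.2 against 5.63). *Ndufa4l2* with 5C was at 1.77 scaled CPM in replicate 5 of RPG3 and at 8.11 in replicate 8 of RPG1, from 8 UMIs each, with all other samples of these groups at 0.

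The difference between 5C and DMSO was not the same in RPG3 and SSC1-4 for *Pdk1*, by -1.43 ± 0.40 on the log2 scale (edgeR, adjusted p = 0.02). It was the only call among the 10 genes, near the 9.75% of all genes called. No DMSO sample gave sums of both classes, so class and sample cannot be told apart there. *Pdk1* was at 268 and 295 scaled CPM in DMSO RPG3 sums and 80.1 to 257 with 5C, and at 53.6 to 74.5 in DMSO SSC1-4 sums and 45.3 to 148 with 5C.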

How the results depend on the processing

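Of 1910 values of the 10 genes recomputed under alternatives, 1691 kept their direction and their side of the threshold, 108 no longer passed, 21 passed anew, 85 changed sign without passing in either setting and 5 called values reversed. With the library as a block, edgeR called 0 genes in RPG1 (3 at an unadjusted p under 0.05), 3 in RPG2, 0 in fibroblasts (2), 0 in early-pluripotent cells (2), 0 in meiotic cells (0) and 1 in neural cells. The same libraries without the block gave 0 (1), 2, 0 (2), 0 (0), 0 (1) and 1, so fewer samples enter either fit. Reversed were *Ankrd37* in RPG1 within batch B2 (-0.24), and in meiotic cells *Slc2a1* (0.36 with the block, 0.10 for the same libraries without it) and *Ankrd37* (0.55 and 0.071). Within batch B2, 0 passed in RPG1 (2), early-pluripotent (3) and meiotic cells (1) and for the day (0). Early-pluripotent cells gave 0 with batch as a covariate (4) and with only the 2 classes (5), 3 with at least 10 cells and 4 with DESeq2. Neural cells gave 4 with at least 10 cells. Sums per batch and day gave 0 in meiotic cells (2), 3 in neural cells, 1 for RPG4 against RPG3 and 0 for the day (1). Without the day 0 library the day gave 3. Leaving out 1 library gave 3 to 4 in RPG2, 5 to 7 in RPG4, 1 to 2 in fibroblasts, 0 in early-pluripotent cells (3 to 4), 0 to 2 for RPG4 against RPG3 (0 without day 20 replicate 2, with 2 at an unadjusted p under 0.05) and 2 to 5 for 5C in RPG3. Relations over RPG3 libraries passed in 4 of 16 and, without the 2 farthest libraries, in 0 (2). The cause of these shifts was not tested.

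Over all genes, counts called moved by more than 1.5 times in RPG1 (923 to between 0 and 1781), RPG2 (7210 to as few as 2515), RPG3 (11371 to as few as 3123), RPG4 (5543 to as few as 2957), fibroblast (1128 to as few as 0), early-pluripotent (258 to between 0 and 1072), meiotic (373 to between 0 and 1168) and neural cells (2151 to as few as 297), for RPG4 against RPG3 (1789 to as few as 690), the day (718 to between 0 and 1425) and 5C in SSC1-4 (2604 to 1497), RPG1 (525 to 267) and RPG3 (1775 to 459). Without TMM, the share of calls that were higher went from 40.8% to 80.2% for 5C in RPG3, from 38.5% to 66.3% in RPG1, from 44.2% to 63.3% for RPG4 against RPG3 and from 32.9% to 66.5% for the day. Equal sample numbers of 5C and DMSO did not pair samples (r = 0.12, 0.0029 and -0.02), and a replicate block over them in SSC1-4 gave 3 calls, as without it. RPG1 and RPG3 share 1 number each, so no such fit was possible there. Sums of 5 to 11 cells limit RPG2, RPG4 and several neural values, and SSC1-4 sums went down to 6 cells.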
